A study of Mus musculus with 11 samples.

Results

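The 6 genes described here are the protein-coding members of the imprinted Prader-Willi domain that were chosen by symbol, namely Peg12, Mkrn3, Magel2, Ndn, Snrpn and Ube3a. All 6 were found among the 55228 gene symbols of the count and TPM tables, and all 6 were among the 16420 genes with enough counts to be tested. The cells were mouse embryonic stem cells (ESCs) grown in serum with LIF, from EN52.9.1, a CTCF-AID line in which auxin degrades the endogenous CTCF protein. CTCF binds DNA through its zinc fingers and organises chromosomes into loops and domains. Every group analysed was made in this 1 line, and no separate clone or culture is named for the libraries, so p-values measure only the spread between these samples, which may be technical.

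The groups were EV cells without auxin (EV untreated, 3 libraries, labelled as wild-type), EV cells with 500 µM auxin (EV auxin, 2 libraries, labelled as depleted of endogenous CTCF), cells with 500 µM auxin that carry FL CTCF put back (FL auxin, 3 libraries) and cells with 500 µM auxin that carry CTCF with an H373R substitution (H373R auxin, 3 libraries, titled ZF4). The study asked how expression responds to loss of CTCF and to its return in either form. No group received auxin with its endogenous CTCF intact, so loss of CTCF and the auxin itself cannot be told apart in the EV pair.

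The Prader-Willi domain is a cluster of imprinted genes, in which one parental copy is silent. Its imprinting centre lies at the Snrpn promoter and is methylated on the maternal chromosome, so that Snrpn, Ndn, Magel2, Mkrn3 and Peg12 are transcribed from the paternal copy. Ube3a is the exception: it is read from both copies in most cell types, and in neurons its paternal copy is silenced along with transcription of the antisense RNA Snhg14. The counts do not separate the parental copies, so every level below is the sum of both alleles.

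In GENCODE M21 (GRCm38) the 6 genes lie on chromosome 7 in the order Ube3a (chr7:59228750-59311536, plus strand), Snrpn (chr7:59982495-60140219, minus), Ndn (chr7:62346569-62350262, plus), Magel2 (chr7:62377010-62381640, plus), Mkrn3 (chr7:62417593-62420139, minus) and Peg12 (chr7:62461871-62464510, minus). The last 4 are annotated with 1 exon each and sit within 118 kb of each other, while 2206 kb separate Snrpn from Ndn. The stretch from Atp10a to Peg12 spans 3.81 Mb and holds 279 annotated genes, of which 21 had any count in the 11 libraries and 11 were tested. None of its 210 snoRNA genes had a count, and Snurf, which shares its transcript with Snrpn, was listed at 0 in every library. All 216 exon bases of Snurf are shared with Snrpn on the same strand, so this 0 cannot be read as absence of the transcript. The snoRNA genes are short, for example 94 bases for Snord116l2 and 67 for Snord64. How well such short RNAs were captured and counted is not known here, so their 0 cannot be read as absence either.

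The total count per library was 13465241 to 29902246, and the 6 genes together held 0.0296% to 0.0371% of it. EV untreated replicate 1 stood apart from its group: its deviation from the group mean correlated with the GC content of the gene (Pearson's r = 0.56 across 16242 genes, which are not independent replicates). Where leaving it out changed the call of one of the 6 genes, or a count of calls by over 1.5 times, the value without it is given too. It is 1 of the libraries that set the spread in every comparison, and without it the share of all tested genes past the threshold after auxin was 33.3%. The same correlation with GC content was 0.32 in FL auxin replicate 1, and -0.38 and -0.32 in EV untreated replicates 2 and 3. The group mean includes the library itself, so a deviation in replicate 1 shifts those of replicates 2 and 3 the other way. Defining ESC markers were abundant in all groups (summed TPM of the 8 listed markers 10961 to 11957). The 7 listed primitive endoderm markers summed to 18.7 to 19.9 TPM in EV untreated, 22.1 to 22.7 in EV auxin, 63.5 to 68.6 in FL auxin and 40.9 to 45.6 in H373R auxin, and none was at 0 in a whole group. The 7 neural markers summed to 357 to 423, 379 to 388, 292 to 330 and 328 to 339 TPM in the same order, with Dcx at 0 in EV auxin and H373R auxin. The 6 fibroblast markers summed to 52.4 to 56.5, 48.3 to 53.2, 64.3 to 73.0 and 63.3 to 68.3 TPM, with Lum at 0 in both EV groups and Postn at 0 in the FL and H373R groups. The part of these other cell types in the results below was not tested, and in bulk RNA fewer cells of a type and less RNA per cell cannot be told apart.

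Per length, Snrpn was by far the most abundant of the 6. Its level was 220 to 326 TPM over the 11 libraries, which was 80.1% to 87.9% of the summed TPM of the 6 genes. Ube3a followed at 24.2 to 36.0 TPM, Ndn at 9.75 to 14.6, Mkrn3 at 6.25 to 10.7, Peg12 at 1.10 to 3.88 and Magel2 at 0.188 to 0.486. The order was the same in 11 of 11 libraries. Ndn and Mkrn3 were the only neighbours in it whose ranges over libraries overlapped, and within a library Ndn was 1.08 to 1.74 times the level of Mkrn3.

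The symbols were listed with their values in these libraries already known. The differences between groups for the 6 genes are therefore a description: each carries the standard error (SE) of an edgeR quasi-likelihood fit over all tested genes, and passing the threshold (Benjamini-Hochberg adjusted p under 0.05) is stated without a p-value. Levels are CPM, which are counts relative to the TMM-scaled total of the library.

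Peg12 and Mkrn3 were the 2 members that passed the threshold after auxin, both lower, and their promoters are shown for that reason. Both sequences are from RefSeq (GRCm38.p6), run from 250 bases before to 50 bases after the start of the gene and are written 5′ to 3′ on the gene's strand. Capitals mark a match on either strand to the consensus core of the sequence that CTCF recognises. The motif was chosen after the promoters had been read.

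Peg12 (chr7:62464461-62464760, minus): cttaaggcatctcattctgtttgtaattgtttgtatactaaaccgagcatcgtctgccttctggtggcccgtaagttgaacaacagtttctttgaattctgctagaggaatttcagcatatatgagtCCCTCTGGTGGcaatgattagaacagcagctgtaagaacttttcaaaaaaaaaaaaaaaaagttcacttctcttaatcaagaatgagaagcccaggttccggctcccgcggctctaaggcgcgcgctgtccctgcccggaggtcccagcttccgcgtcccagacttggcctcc

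Mkrn3 (chr7:62420104-62420403, minus): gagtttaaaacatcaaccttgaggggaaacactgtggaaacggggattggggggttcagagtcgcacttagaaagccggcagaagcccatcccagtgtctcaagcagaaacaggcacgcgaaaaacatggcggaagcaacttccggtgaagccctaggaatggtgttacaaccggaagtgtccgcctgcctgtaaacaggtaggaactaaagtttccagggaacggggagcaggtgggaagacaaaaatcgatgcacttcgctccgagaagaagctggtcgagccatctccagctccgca

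The Peg12 promoter held 1 match, CCCTCTGGTGG, starting 123 bases before the gene's start and with the motif on the opposite strand. At least 1 match was present in 287 of 32851 RefSeq promoters of the same length (0.874%). The Mkrn3 promoter held none, nor did those of Magel2, Ndn, Snrpn and Ube3a. A match is a description of letters and not a measured binding site. The number of CpG pairs in the 300 bases was 12 for Peg12, 15 for Mkrn3, 10 for Magel2, 11 for Ndn, 29 for Ube3a and 2 to 7 for the 4 Snrpn starts, against a median of 7 over all promoters. A pattern of 4 runs of at least 3 G with loops of 1 to 7 bases, one way to write a possible G-quadruplex, was found on either strand in the Magel2 promoter alone of the 6 genes, and in 18.6% of all promoters.

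Peg12, a relative of the Frat proteins that bind the kinase GSK3, was low throughout and changed most. It had 2.73, 2.20 and 2.68 CPM in EV untreated, 1.08 and 0.747 in EV auxin, 1.81, 1.52 and 2.09 in FL auxin and 1.29, 1.04 and 0.885 in H373R auxin. The EV untreated libraries were the highest and did not overlap any other group, the FL libraries lay between, and EV auxin and H373R auxin overlapped each other. As a share of the EV untreated mean the level was 36.1% in EV auxin, 71.2% in FL auxin and 42.2% in H373R auxin. These levels rest on 18 to 82 counts per library.

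After auxin Peg12 was lower in the EV cells by a log2 fold change of -1.52 ± 0.23 (SE), past the threshold. The FL cells were higher than EV auxin by 1.04 ± 0.26, past the threshold, and lower than EV untreated by -0.48 ± 0.18, just past it. The H373R cells differed from EV auxin by 0.26 ± 0.27, which did not pass, and from EV untreated by -1.26 ± 0.19, which did. Set directly against each other, H373R was lower than FL by -0.78 ± 0.22, just past the threshold. That last call ended in 12 of 23 alternatives, DESeq2 among them, including when EV untreated replicate 3 (-0.78), EV auxin replicate 1 (-0.78), FL replicate 1 (-0.79), 2 (-0.87) or 3 (-0.67) or H373R replicate 2 (-0.77) or 3 (-0.66) was left out. The FL call against EV auxin ended without EV auxin replicate 2 (0.77). The FL call against EV untreated ended in 13 of 23 alternatives, among them leaving out EV untreated replicate 1 (-0.42) or 3 (-0.44), EV auxin replicate 1 (-0.48), FL replicate 1 (-0.47) or 2 (-0.39) or H373R replicate 2 (-0.47).

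Mkrn3, which encodes a makorin with a RING domain of ubiquitin ligases, was lower in EV auxin than in every other group. It had 6.99, 7.34 and 6.61 CPM in EV untreated, 4.45 and 4.11 in EV auxin, 7.21, 6.53 and 7.09 in FL auxin and 6.93, 6.18 and 6.46 in H373R auxin. The EV auxin libraries lay below every other library, and the remaining 3 groups overlapped. The mean was 61.3% of EV untreated in EV auxin, 99.4% in FL auxin and 93.4% in H373R auxin.

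The log2 fold change of Mkrn3 after auxin was -0.71 ± 0.11 in the EV cells. It was 0.71 ± 0.12 for FL and 0.62 ± 0.11 for H373R against EV auxin, and these 3 differences passed the threshold here and under all 23 alternatives. H373R and FL differed by -0.10 ± 0.10, and against EV untreated the differences were 0.00 ± 0.09 for FL and -0.09 ± 0.09 for H373R, none past the threshold. The comparisons with EV auxin share the same 2 control libraries, so they are not independent of each other.

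**Figure D1:**
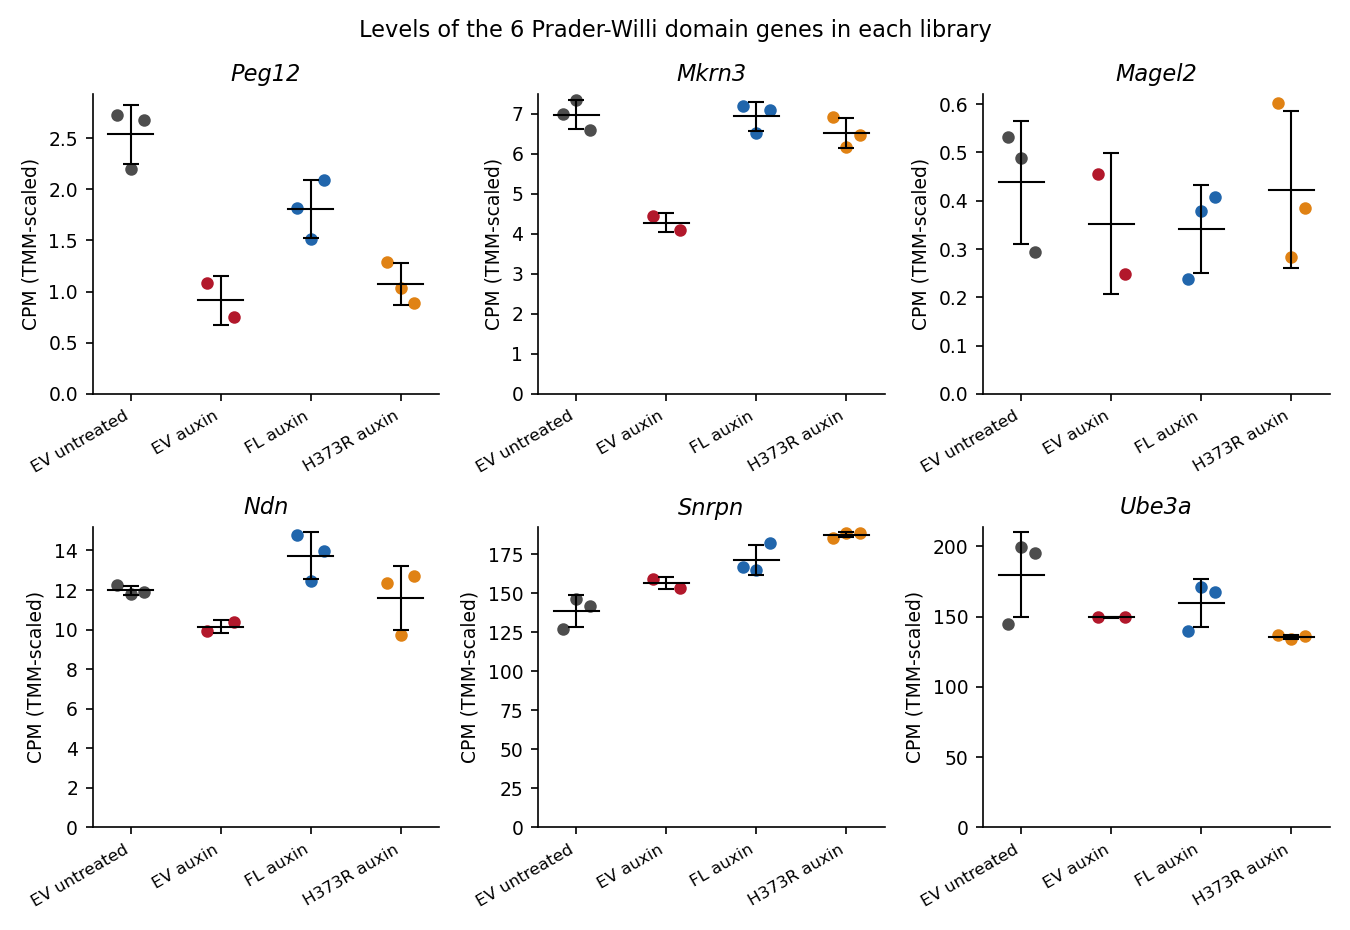
TMM-scaled CPM (vertical axes, linear from 0) of the 6 genes in each library, by group; points are libraries, horizontal bars the group means and error bars the SD. Mkrn3 sits at 4.11 to 4.45 in EV auxin and above 6 elsewhere, Peg12 is at 0.747 to 1.29 in EV auxin and H373R auxin, and Snrpn is highest in H373R auxin.

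Ndn encodes necdin, a MAGE-family protein best known from neurons. It had 12.3, 11.8 and 11.9 CPM in EV untreated, 9.92 and 10.4 in EV auxin, 14.8, 12.5 and 14.0 in FL auxin and 12.3, 9.72 and 12.7 in H373R auxin. The FL libraries were the highest on average (13.7 ± 1.19 CPM, SD, n = 3), and H373R replicate 2 was the lowest of all. FL was higher than EV auxin by a log2 fold change of 0.44 ± 0.12, past the threshold, while the difference after auxin in the EV cells (-0.24 ± 0.11), that of H373R from EV auxin (0.20 ± 0.11) and that of H373R from FL (-0.25 ± 0.10) did not pass. The FL call ended in 6 of 23 alternatives, namely in the 3 limma fits on TPM (0.34, 0.36 and 0.34), at an adjusted p under 0.01 and without EV auxin replicate 1 (0.41) or 2 (0.49). The primitive endoderm markers were also highest in FL auxin, as given above.

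Magel2, a MAGE-family gene whose protein works with the ubiquitin ligase TRIM27 on endosomes, rested on few counts. Each library held 5 to 16 of its counts, and the group means were 0.439 CPM in EV untreated, 0.353 in EV auxin, 0.342 in FL auxin and 0.423 in H373R auxin. All groups overlapped, and with SE of 0.36 to 0.51 on the log2 scale a change of the size of Mkrn3's was not detectable at this depth.

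Snrpn encodes SmN, a core protein of the spliceosomal small nuclear ribonucleoproteins. It had 127, 146 and 142 CPM in EV untreated, 159 and 154 in EV auxin, 167, 165 and 182 in FL auxin and 186, 189 and 189 in H373R auxin. The EV untreated libraries were the lowest and the H373R libraries the highest, and no neighbouring groups in that order overlapped. In contrast to Peg12 and Mkrn3, Snrpn was not lower after auxin: the difference in the EV cells was 0.18 ± 0.06 on the log2 scale, which did not pass.

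H373R was higher than EV auxin by 0.26 ± 0.06 and higher than EV untreated by 0.44 ± 0.06, both past the threshold, and FL was higher than EV untreated by 0.31 ± 0.06, also past it. FL against EV auxin (0.13 ± 0.06) and H373R against FL (0.13 ± 0.06) did not pass. Without EV auxin replicate 2 the difference of H373R from EV auxin no longer passed (0.24). Without EV untreated replicate 2 the difference after auxin passed (0.21), and without EV untreated replicate 1 that of FL from EV auxin did (0.15). With the trend on GC content removed, 3 differences that had not passed did so, namely after auxin (0.20), FL from EV auxin (0.17) and H373R from FL (0.16). Snrpn shares 589 exon bases with Gm38393 on the same strand, which had 586 counts in all libraries against 2169 to 4901 per library for Snrpn.

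The closest relative of SmN is SmB, encoded by Snrpb, and their levels can be set side by side per length. Snrpn made up 32.7%, 38.7% and 38.7% of the summed TPM of both genes in EV untreated, 41.1% and 40.5% in EV auxin, 40.4%, 43.1% and 45.0% in FL auxin and 45.4%, 45.3% and 44.5% in H373R auxin. Snrpb itself had 219 ± 17.7 CPM in EV untreated and 207 to 209 CPM on average in the auxin groups. Reads of the 2 relatives could be split by the counting where they are alike. How reads in the exon bases that Snrpn shares with Snurf and Gm38393 were counted is not given in the sources used here. The Snrpn level and its share are uncertain to that extent.

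Ndn and all 4 annotated Snrpn starts carry the letters GCATGCG, a core of the sequence bound by the transcription factor NRF1, and 1 promoter of each gene is shown to place it. The letters overlap on both strands as CGCATGCG, given here in capitals. This is 1 place per promoter, and 3.58% of all promoters hold the letters. The promoters of Peg12, Mkrn3, Magel2 and Ube3a hold none. Ndn and Snrpn are shown because they carry the letters, so the share over all promoters is no test of these genes. Snrpn starts 1 to 3 share long stretches of sequence around it, so the 4 starts are not independent occurrences.

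Ndn (chr7:62348027-62348326, plus): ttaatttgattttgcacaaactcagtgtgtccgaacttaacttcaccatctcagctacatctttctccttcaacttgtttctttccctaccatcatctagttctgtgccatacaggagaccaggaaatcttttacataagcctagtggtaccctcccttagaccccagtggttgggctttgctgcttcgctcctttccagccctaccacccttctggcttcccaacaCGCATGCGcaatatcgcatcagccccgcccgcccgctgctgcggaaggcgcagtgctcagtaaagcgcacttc

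Snrpn, start 4 (chr7:60005150-60005449, minus): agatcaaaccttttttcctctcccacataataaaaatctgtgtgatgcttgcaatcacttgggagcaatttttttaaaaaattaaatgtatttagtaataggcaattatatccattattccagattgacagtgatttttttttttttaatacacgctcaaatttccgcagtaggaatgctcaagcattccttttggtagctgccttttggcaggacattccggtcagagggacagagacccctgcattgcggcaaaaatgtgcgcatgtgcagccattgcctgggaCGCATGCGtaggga

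In Ndn the place lies 23 bases before the RefSeq start. In Snrpn start 4 it lies 36 bases after, and in the other Snrpn starts 63, 78 and 71 bases before. The 2 genes did not share a pattern of levels over the groups, Ndn being highest in FL auxin and Snrpn in H373R auxin.

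Ube3a encodes the founding HECT-domain ubiquitin ligase and is the member lost or mutated in Angelman syndrome. It had 145, 199 and 195 CPM in EV untreated, 150 and 149 in EV auxin, 140, 171 and 168 in FL auxin and 137, 134 and 136 in H373R auxin. EV untreated replicate 1 and FL replicate 1 were low within their groups, and the H373R libraries were below all others. H373R was lower than EV untreated by -0.40 ± 0.10 on the log2 scale, past the threshold under all 23 alternatives, though smaller (-0.19) with the trend on GC content removed. The differences after auxin in the EV cells (-0.26 ± 0.11) and between H373R and FL (-0.23 ± 0.10) did not pass.

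Without EV untreated replicate 1, which also enters the estimate of the spread, those 2 differences passed (-0.41 and -0.24), as did that of FL from EV untreated (-0.31 in place of -0.17 ± 0.10). With the trend on GC content removed in every library, the difference after auxin was smaller but passed (-0.17), as did that of H373R from FL (-0.15). Without a filter on low counts the differences after auxin (-0.27), of H373R from FL (-0.22) and of FL from EV untreated (-0.17) passed. With only the libraries compared, that of H373R from FL passed (-0.23). FL (0.09) and H373R (-0.14) did not pass against EV auxin. In 1 of 23 alternatives each did, FL with the GC trend removed (0.14) and H373R with only the libraries compared (-0.14). Ube3a shares 1803 exon bases with Snhg14 on the opposite strand, and the strand setting of the counting is not given in the sources used here. Snhg14 had 63 to 186 counts per library, against 2250 to 5309 for Ube3a.

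**Figure D2:**
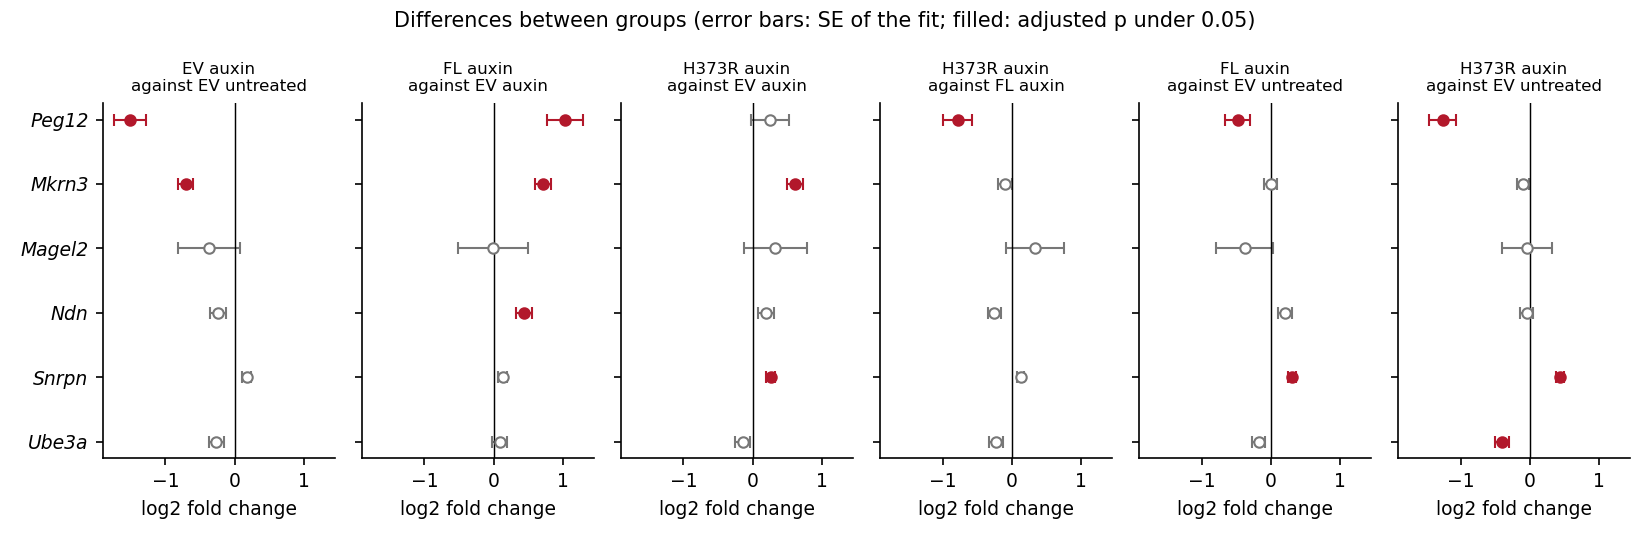
Log2 fold change (horizontal axes) of the 6 genes in the 6 comparisons; points are the estimates, bars the SE of the fit and filled points an adjusted p under 0.05. Peg12 is low in all 3 comparisons that set another group against EV untreated and in H373R against FL, whereas Mkrn3 lies near 0 for FL and H373R against EV untreated.

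Over the 6 genes, the number past the threshold was 2 (both lower) in EV auxin against EV untreated, where 20.7% of all tested genes passed and 9.4% were lower. It was 3 (all higher) in FL against EV auxin, with 24.5% of all genes passing and 11.1% higher, and 2 (both higher) in H373R against EV auxin, with 21.7% passing and 10% higher. H373R against FL gave 1 (lower; 5.96% of all genes passed, 2.82% lower), FL against EV untreated 2 (1 in each direction; 36.9%) and H373R against EV untreated 3 (1 higher, 2 lower; 44.4%). Without EV untreated replicate 1 the first of these counts was 3, where 33.3% of all tested genes passed. That of H373R against FL was then 2, where 14.2% of all tested genes passed. Nothing is read from these counts, since the genes were chosen with their values known. The median log2 fold change of the 6 was -0.32 after auxin in the EV cells, 0.29 for FL and 0.26 for H373R against EV auxin and -0.16 for H373R against FL. Over all tested genes these medians were 0.01, -0.01, 0.00 and 0.00. Nothing is read from the medians of the 6 either, for the same reason. The 6 did not all lie on 1 side, since Snrpn was at 0.18 after auxin, without passing.

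The rule for the 6 genes did not use the genes that lie next to them on the chromosome, and these were tested, although their list too was drawn up with earlier results known. Of 33 listed neighbours found in the table (23 flanking protein-coding genes from Tubgcp5 to Tarsl2 and 10 noncoding or overlapping transcripts of the domain), 25 had a count and 21 could be tested. After auxin 4 of the 21 passed the threshold in the EV cells, 1 higher and 3 lower (20.7% of all tested genes passed). Without EV untreated replicate 1 it was 7 of 21, where 33.3% of all tested genes passed.

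The genes with the largest falls lie beyond Peg12 on its far side. Apba2, an adaptor that binds the amyloid precursor protein, fell from 4.06, 3.48 and 3.34 CPM to 0.741 and 1.20 (log2 fold change -1.85 ± 0.25, adjusted p = 7.75e-05, edgeR). Chrna7, a nicotinic acetylcholine receptor subunit 634 kb from Peg12, fell from 6.09, 6.31 and 6.24 CPM to 3.88 and 3.82 (-0.69 ± 0.11, adjusted p = 4.54e-04, edgeR). Both calls held under all 23 alternatives. Between Peg12 and Apba2, genes such as Klf13 and Mtmr10 did not pass, so the lower genes were not a continuous block.

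**Figure D3:**
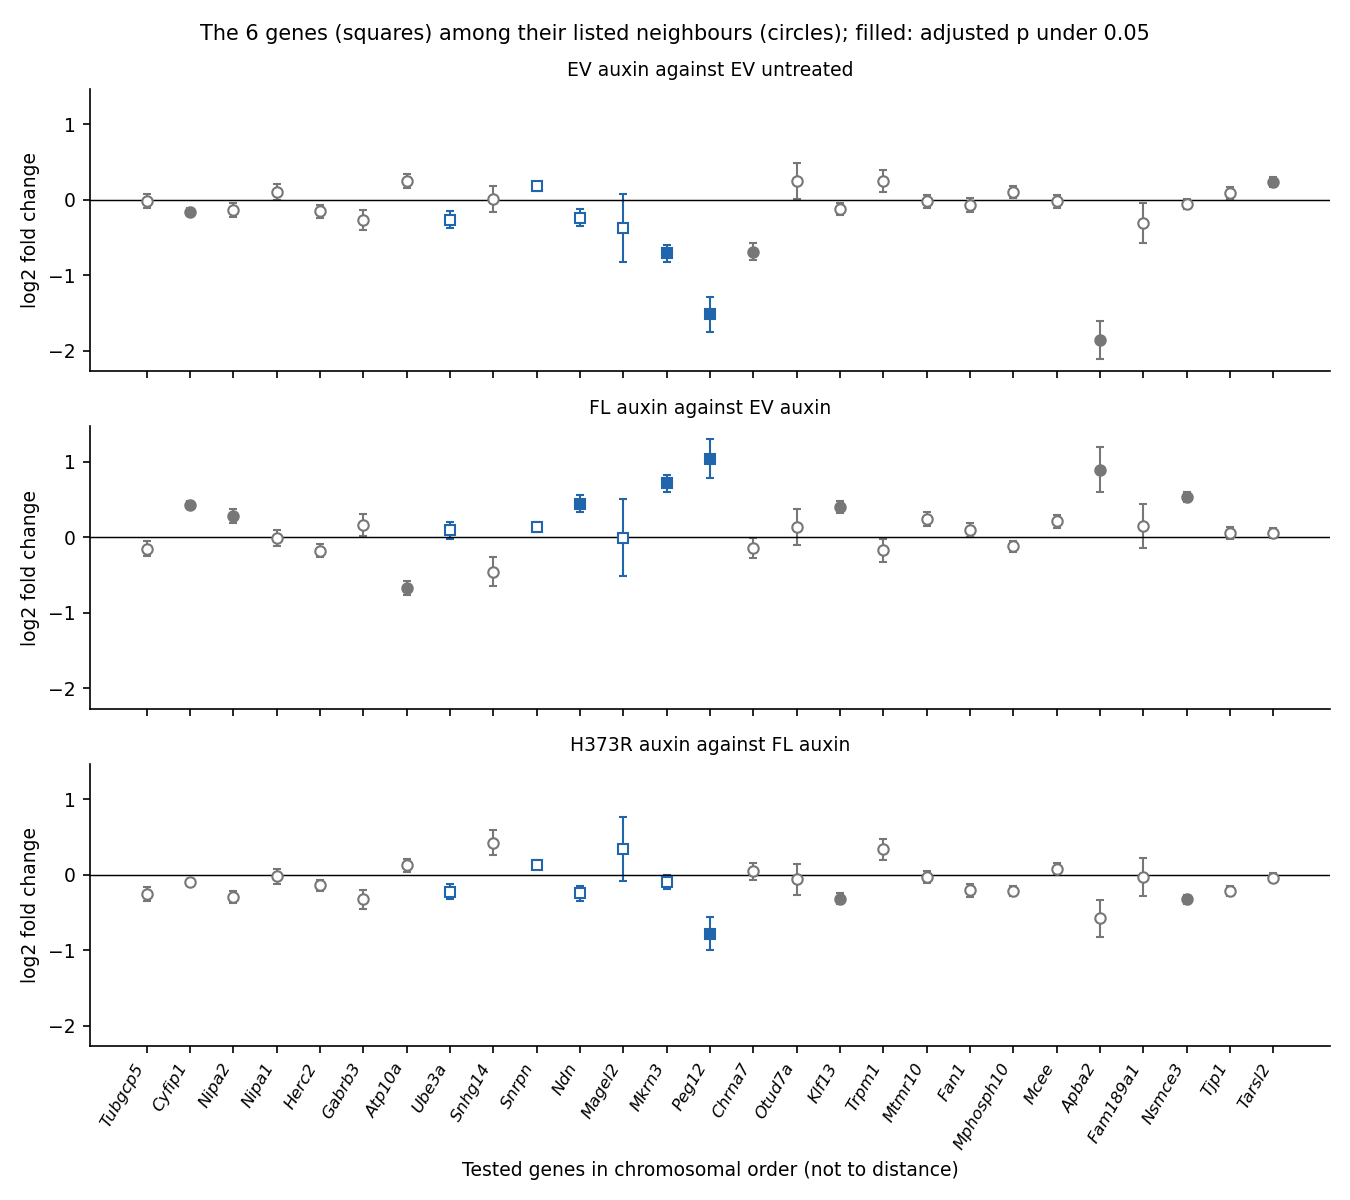
Log2 fold change (vertical axes) of the 27 tested genes of the stretch in chromosomal order, not to distance, in 3 comparisons; squares are the 6 genes, circles the listed neighbours, bars the SE and filled symbols an adjusted p under 0.05. After auxin the lowest values are those of Apba2, Peg12, Mkrn3 and Chrna7, and in FL against EV auxin Atp10a is the only filled symbol below 0.

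Chrna7 did not pass against EV auxin in the cells with either form of CTCF. It had 3.15, 3.80 and 3.62 CPM in FL auxin and 3.57, 3.49 and 3.69 in H373R auxin, with log2 differences from EV auxin of -0.14 ± 0.13 (adjusted p = 0.532) and -0.10 ± 0.12 (adjusted p = 0.672) by edgeR. Apba2 had 2.00, 1.52 and 1.99 CPM in FL auxin and 1.20, 1.75 and 0.885 in H373R auxin. FL was higher than EV auxin by 0.89 ± 0.29 (adjusted p = 0.0380, edgeR), and H373R by 0.32 ± 0.31 (adjusted p = 0.500). H373R and FL differed by -0.58 ± 0.24 (adjusted p = 0.193), which did not pass, so a difference between the forms was not shown for Apba2. The FL call ended in 8 of 23 alternatives. These were the 3 limma fits on TPM (0.49, 0.81 and 0.49, with adjusted p = 0.0835, 0.0741 and 0.145), an adjusted p under 0.01, and leaving out EV auxin replicate 1 (0.64) or 2 (1.34) or FL replicate 1 (0.83) or 3 (0.85).

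In FL against EV auxin 6 of the 21 neighbours passed (24.5% of all genes did), 5 higher and 1 lower. The lower one was Atp10a, a phospholipid-transporting ATPase next to Ube3a. It had 12.8, 12.1 and 13.1 CPM in EV untreated, 14.9 and 15.2 in EV auxin, 9.11, 9.64 and 9.69 in FL auxin and 11.3, 9.91 and 9.69 in H373R auxin. It fell in FL (-0.67 ± 0.09, adjusted p = 1.36e-04, edgeR) and in H373R (-0.55 ± 0.09, adjusted p = 6.54e-04) against EV auxin, and in both against EV untreated (-0.42 ± 0.08 with adjusted p = 0.00116, and -0.30 ± 0.08 with adjusted p = 0.00658). The difference after auxin in the EV cells was 0.25 ± 0.09 (adjusted p = 0.0551) and passed without EV untreated replicate 1 (0.24).

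Nsmce3, a MAGE-family subunit of a DNA repair complex, was among the 5 that rose. It had 29.5, 29.8 and 28.0 CPM in EV untreated, 27.3 and 28.6 in EV auxin, 40.0, 42.2 and 39.1 in FL auxin and 31.3, 32.3 and 33.0 in H373R auxin. It rose in FL against EV auxin by 0.53 ± 0.07 (adjusted p = 5.86e-05, edgeR) and was lower in H373R than in FL by -0.33 ± 0.06 (adjusted p = 0.00302). It was 1 of 2 neighbours past the threshold in H373R against FL, the other being Klf13, where 5.96% of all tested genes passed. Without EV untreated replicate 1, 7 of 21 neighbours passed there, beside 14.2% of all tested genes. Cyfip1, a subunit of the actin-regulating WAVE complex, rose in FL (0.43 ± 0.05, adjusted p = 4.34e-05, edgeR) and in H373R (0.33 ± 0.05, adjusted p = 5.37e-04) against EV auxin. Its small fall after auxin (-0.16 ± 0.05, adjusted p = 0.0378) ended in 10 of 23 alternatives, among them leaving out EV untreated replicate 2 (-0.17) or 3 (-0.16) or EV auxin replicate 1 (-0.16) or 2 (-0.17).

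In H373R against EV auxin 7 of the 21 neighbours passed, 3 higher and 4 lower, where 21.7% of all genes did. Herc2, a giant HECT-domain ubiquitin ligase, fell by -0.32 ± 0.08 (adjusted p = 0.00969, edgeR), a call that ended without EV auxin replicate 1 (-0.34) or 2 (-0.30) or H373R replicate 2 (-0.26) or 3 (-0.26). Against EV untreated, Herc2 was lower in FL (-0.33 ± 0.07, adjusted p = 0.00203) and in H373R (-0.48 ± 0.07, adjusted p = 7.01e-05) by the same edgeR test. In those comparisons 10 and 11 of the 21 neighbours passed, beside 36.9% and 44.4% of all tested genes.

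Snhg14, the long noncoding RNA that runs antisense to Ube3a, was the only listed noncoding transcript with enough counts to be tested. It had 4.59, 7.39 and 6.83 CPM in EV untreated, 6.16 and 6.27 in EV auxin, 3.82, 4.78 and 5.10 in FL auxin and 6.24, 5.75 and 6.19 in H373R auxin. The FL libraries were below those of both other auxin groups. FL was lower than EV untreated by -0.45 ± 0.16 (adjusted p = 0.0445, edgeR), with overlapping libraries, and than EV auxin by -0.46 ± 0.19 (adjusted p = 0.0880), which did not pass. The call against EV untreated ended in 12 of 21 alternatives, 9 of which left out 1 library (all but EV untreated replicate 1 and FL replicate 3). Without EV untreated replicate 1 Snhg14 was lower in FL than in EV untreated by -0.64 (adjusted p = 1.51e-04, edgeR) and than in EV auxin by -0.44 (adjusted p = 0.0105), and higher in H373R than in FL by 0.41 (adjusted p = 0.0191), a difference that with all libraries did not pass (0.42). As for Ube3a, replicate 1 was the lowest library in both EV untreated and FL auxin.

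**Figure D4:**
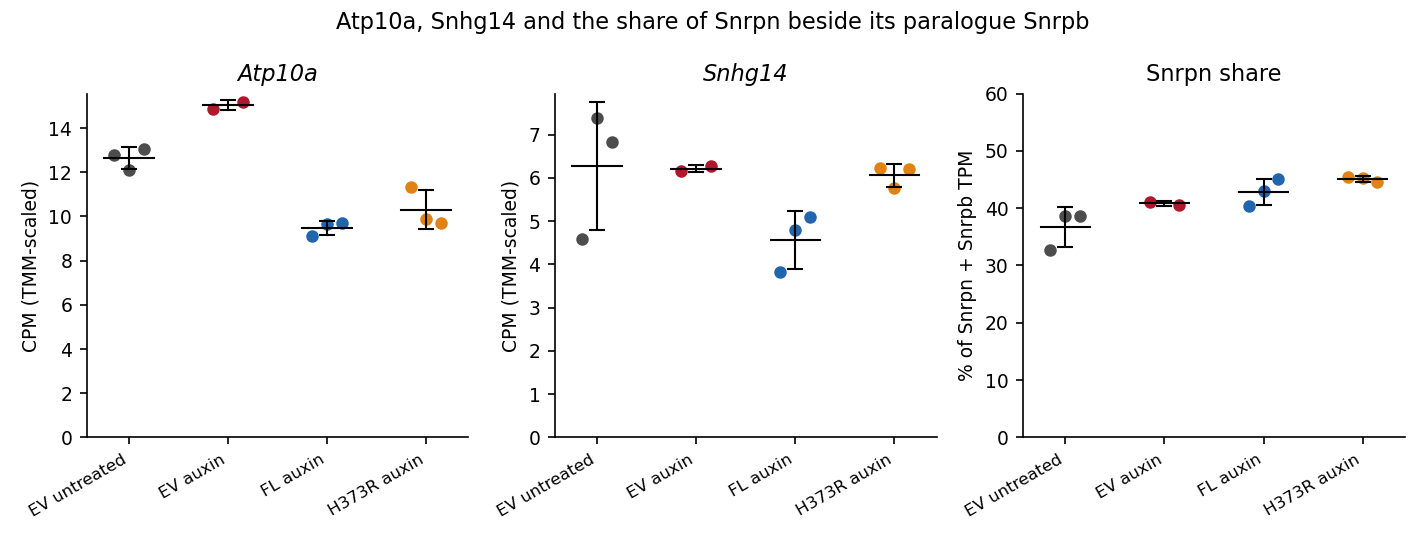
Left and middle, TMM-scaled CPM of Atp10a and Snhg14 by library; right, Snrpn as a percentage of the summed TPM of Snrpn and Snrpb; points are libraries, horizontal bars group means and error bars the SD. Atp10a is highest in EV auxin (14.9 to 15.2), Snhg14 lowest in FL auxin on average, and the Snrpn share highest in H373R auxin on average.

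Proteins that set or protect imprints formed a separate list of 14 genes, all tested. After auxin 3 of the 14 rose in the EV cells and none fell (median log2 fold change 0.04, against 0.01 over all tested genes, of which 20.7% passed). That count was 6 (4 higher, 2 lower) without EV untreated replicate 1, where 33.3% of all tested genes passed. It was smaller without EV auxin replicate 2, which leaves 1 library in that group. Dppa3, which shields maternal methylation in the zygote, rose from 15.2 ± 0.89 to 31.4 ± 0.14 CPM (1.05 ± 0.08, adjusted p = 9.27e-08, edgeR) and fell against EV auxin in FL (-1.35 ± 0.08, adjusted p = 6.44e-08) and H373R (-0.96 ± 0.08, adjusted p = 4.33e-06). Against EV auxin 4 of the 14 fell in FL and 5 in H373R, and none rose, beside 24.5% and 21.7% of all tested genes that passed in either direction. Both counts were smaller without either EV auxin library, which leaves 1 in that group, as were the numbers over all tested genes. The H373R count was 3 without H373R replicate 2 or 3, beside 2657 of 16496 and 2440 of 16344 tested genes. Arid4a, a chromatin protein that acts with Arid4b at the imprinting centre of this domain, was lower in FL (-0.48 ± 0.08, adjusted p = 6.15e-04, edgeR) and H373R (-0.63 ± 0.08, adjusted p = 1.20e-04). Arid4b was lower in FL by -0.37 ± 0.10 (adjusted p = 0.0107, edgeR) and in H373R by -0.51 ± 0.10 (adjusted p = 0.00162), and the FL call ended without EV auxin replicate 1 (-0.34) or 2 (-0.40).

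A list of 19 relatives and partners of the 6 proteins was tested in full. After auxin 3 of the 19 passed in the EV cells, 1 higher and 2 lower, where 20.7% of all tested genes passed. Without EV untreated replicate 1 it was 6 of 19, 3 in each direction, where 33.3% of all tested genes passed. Those that fell were Snrpd1, another Sm core protein (-0.83 ± 0.08, adjusted p = 2.31e-06, edgeR), and Magee1, another MAGE-family gene (-1.11 ± 0.17, adjusted p = 2.05e-04). Snrpd1 rose against EV auxin in FL (0.52 ± 0.08, adjusted p = 3.33e-04, edgeR) and H373R (0.55 ± 0.08, adjusted p = 3.10e-04), whereas Magee1 did not pass in either (adjusted p = 0.142 and 0.378). Mkrn1, the founding makorin, was far more abundant than Mkrn3, and its difference after auxin did not pass (-0.13 ± 0.04, adjusted p = 0.0557, edgeR), except in 6 of 23 alternatives, among them leaving out EV untreated replicate 1 (-0.13, adjusted p = 0.0400) or H373R replicate 3 (-0.14, adjusted p = 0.0476).

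By likeness of log2 CPM over the 11 libraries, among 12726 genes with a mean of at least 1, the genes closest to Mkrn3 were Perp (Pearson's r = 0.97), Ankrd46 (0.96) and Hsd17b4 (0.95). Closest to Ndn were Il4i1 (0.89), Prmt1 (0.89) and Pnp (0.88), to Snrpn Cnih4 (0.98), Sccpdh (0.98) and Ube2l3 (0.97), and to Ube3a Arl13b (0.99), Dck (0.98) and Mosmo (0.98). The other members were set apart before the search, so none of them could be among these genes. The libraries share groups and depth, so these values describe the pattern over groups and carry no test. Peg12 and Magel2 were too low to be searched.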

How the data were processed

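The authors deposited gene-level tables of unnormalised counts and of TPM (length-scaled abundance), indexed by symbol, for the 11 libraries. Per the submitters' processing notes, the tools were featureCounts, Subread 2.0.3 and DESeq2 with mm10/GRCm38. The aligner, the annotation and the strand setting are not given in the sources used here, so overlapping and antisense genes are uncertain. Per the labels' protocols, libraries were made with a directional kit from column-purified RNA.

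Groups were taken from the labels. The counts went into edgeR 4.0.16 (R 4.3.3) with TMM scaling and the filterByExpr filter by group. One model with a mean per group covered the 11 libraries, and its quasi-likelihood F test was adjusted by Benjamini-Hochberg over 16420 genes at a threshold of 0.05. The members and lists were chosen with earlier results of these data known. All 6 members are named. Of the neighbours, the 6 with the smallest adjusted p, Atp10a among them, are named, and of each other list up to 3. Snhg14, Klf13, Mtmr10 and Snrpb were chosen after their values were seen. Promoter sequences are from RefSeq (GRCm38.p6) and positions from GENCODE M21; GC content was found for 98.9% of tested genes.

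In a test on simulated counts of 16420 genes for EV auxin against EV untreated, 200 genes were changed 2-fold. Of these, edgeR recovered 91.5% with 12 false calls, DESeq2 1.42.0 88.0% with 17 and limma 3.58.1 91.5% with 11. Here limma was given counts scaled to the library total and not TPM, so the limma fits on TPM were not tested. Recovery of genes as low as Magel2, or with a GC trend in a library, was not tested either. The 23 alternatives comprised DESeq2, scaling by RLE or upper quartile, 2 other filters, only the libraries compared, a replicate block, 3 limma fits on log2(TPM + pseudocount), an adjusted p under 0.01, removal of a GC trend and leaving out each library in turn.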

Additional observations from a re-analysis of the deposited data

How the results depend on the processing

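No difference of a member or named neighbour that passed the threshold reversed under the 23 alternatives. Peg12 and Mkrn3 after auxin passed in all of them (Peg12 -0.99 to -1.77, Mkrn3 -0.61 to -0.76). Of 807 values for the members under an alternative, 754 kept their side of the threshold, 35 lost it and 18 gained it. Of the 754, 25 changed sign without passing in either fit. For the neighbours these were 787, 33 and 8 of 828, with 1 change of sign. The same alternatives were added for Snhg14 and the named genes of the other lists after seeing the data. For these, of 1368 values 19 lost the threshold, 28 gained it, 18 changed sign without passing and 1 passed with the opposite sign, that of Snhg14 in H373R against EV untreated with the GC trend removed (0.25, from -0.03). Magel2 was not tested where low genes were removed.

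The count of members past the threshold after auxin (2) was 4 with the GC trend removed and 2 to 3 when 1 library was left out. In FL against EV auxin (3) it was 1 by limma without a TPM filter, 5 with the GC trend removed and 1 to 4 without 1 library, the 1 being without EV auxin replicate 2. In H373R against EV auxin (2) it was 1 by limma without a TPM filter and 1 to 2 without 1 library. In H373R against FL (1) it was 0 by DESeq2, by all 3 limma fits and at an adjusted p under 0.01, 2 without a filter or with only the libraries compared, 3 with the GC trend removed and 0 to 2 without 1 library. Nothing is read from the 4 of 6 members (3375 of 16420 genes) with an unadjusted edgeR p under 0.05 there. In FL against EV untreated (2) it was 1 by DESeq2, by the 3 limma fits, at an adjusted p under 0.01 and with only the libraries compared, and 1 to 2 without 1 library. In H373R against EV untreated it was 3 throughout. Over all tested genes the numbers past the threshold moved too. With the GC trend removed they were 4871 of 16242 after auxin, 5785 in FL against EV auxin and 2044 in H373R against FL. The main fit gave 3392, 4016 and 979 of 16420. In H373R against FL they were 904 by DESeq2 and 436 at an adjusted p under 0.01. There 1297 of 30501 passed without a filter and 1815 of 15546 with only the libraries compared.

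The count of neighbours after auxin (4) was 2 without a filter, with only the libraries compared and at an adjusted p under 0.01. Without 1 library it was 2 to 7. It was 7 without EV untreated replicate 1 and 2 without EV untreated replicate 2, beside 5444 of 16332 and 2763 of 16464 tested genes. In H373R against EV auxin (7) it was 4 by limma without a TPM filter, 4 without H373R replicate 2 and up to 8 without another library. In H373R against FL (2) it was 5 by DESeq2, 7 without a filter, with only the libraries compared or with the GC trend removed, 1 by the 3 limma fits and at an adjusted p under 0.01, and 1 to 7 without 1 library. In FL against EV auxin (6) it was 4 to 9 without 1 library. Leaving out either EV auxin library leaves 1 in that group. The counts after auxin and in H373R against EV auxin were then smaller, as were the numbers over all tested genes. The cause of these shifts was not tested, except that fewer libraries or a stricter threshold enter by construction. Over all tested genes 3563 of 30501 passed after auxin without a filter and 2016 of 16302 with only the libraries compared. At an adjusted p under 0.01 it was 1939 of 16420. In H373R against EV auxin 2335 of 30501 passed by limma without a TPM filter, and 2657 of 16496 without H373R replicate 2. The numbers for H373R against FL are given with the members above. Over all genes the share of calls that were higher in FL against EV auxin was 45.2%, and 28.1% by limma on log2(TPM + 1).

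Whether the replicate numbers pair the samples was not settled, and the main fit did not pair them. Deviations of same-numbered libraries correlated by -0.09 to 0.28 over 15 pairs, with 3 above 0.1. Those of differently numbered libraries from different groups correlated by -0.20 to 0.13 over 30 pairs, with 1 above 0.1. With the replicate block the neighbours past the threshold in H373R against FL were 4, beside 942 of all 16420 tested genes. Snrpn then passed after auxin (0.20). Depth limits Magel2 and Peg12 most.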

Other observations

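Paternally expressed imprinted genes outside the Prader-Willi domain were listed beside the 6 genes, 18 in the table and 16 of them tested. After auxin 3 of the 16 rose in the EV cells and 1 fell (median log2 fold change 0.14, against 0.01 over all tested genes, of which 20.7% passed). Fewer of the 16 passed without EV auxin replicate 2, which leaves 1 library in that group, and fewer of all tested genes did too. Nnat, a small membrane protein gene, rose from 7.05 ± 0.60 to 13.9 ± 0.43 CPM (0.98 ± 0.09, adjusted p = 1.88e-06, edgeR), and Plagl1, a zinc finger gene, rose from 1.10 ± 0.19 to 2.07 ± 0.05 CPM (0.93 ± 0.20, adjusted p = 0.00321). Peg12 and Mkrn3 were lower in the same libraries.

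Against FL, 4 of the 16 were higher in H373R and 2 lower, where 5.96% of all tested genes passed. Those counts were 2 and 1 by limma on log2(TPM + 1) and 7 and 3 with the GC trend removed. Over all tested genes 849 of 17186 and 2044 of 16242 passed in those fits. Mest, which encodes an enzyme of the hydrolase fold, had 24.7 ± 0.41 CPM in EV untreated, 28.6 ± 0.29 in EV auxin, 32.1 ± 3.26 in FL auxin and 47.7 ± 2.17 in H373R auxin, and was higher in H373R than in FL by 0.58 ± 0.07 (adjusted p = 1.09e-04, edgeR). Plagl1 (0.81 ± 0.14, adjusted p = 0.00283) and Nnat (0.52 ± 0.08, adjusted p = 0.00118) were also higher in H373R than in FL by the same test. The Plagl1 call after auxin ended by limma on log2(TPM + 1) (0.40, adjusted p = 0.0796), as did that against FL (0.49, adjusted p = 0.0505).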
